A study of Mus musculus with 6 samples.

Results

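The homeostatic genes of retinal microglia were followed in single-cell RNA sequencing of mouse retina, in oxygen-induced retinopathy (OIR) and in control (Ctrl) samples. The group held 6 of the 31053 mouse genes in the count tables, namely P2ry12, Cx3cr1, Siglech, Tmem119, Sall1 and Sgk1. They were picked by symbol, with their difference between OIR and Ctrl in microglia already in view. That difference is therefore described here with no test. Microglia were taken as the kept cells in which at least 2 of the 4 transcripts C1qa, C1qb, C1qc and Tyrobp were detected. C1qa, C1qb and C1qc encode the chains of complement C1q, and Tyrobp encodes a signalling adaptor of myeloid cells. This gate held 666 of 38569 kept cells, and no homeostatic gene was used in it.

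OIR pups breathed 75% oxygen from P7 to P12 and then room air for 5 days, and the Ctrl pups were kept in room air throughout. Strain, genotype and sex were not given in the sources used here. Retinas were taken at P17 in both groups, each group had 3 samples, and each sample pooled the retinas of 2 mice. In what follows, 3 values for a group stand in the order of its replicates 1, 2 and 3. Nothing in the labels ties samples to litters or to days of preparation. A p-value here thus measures the spread between these pooled samples. The labels call the tissue retinal endothelial cells, but rod-like cells made up 25741 of the kept cells against 193 endothelial-like cells.

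Microglia are the resident macrophages of the retina. At rest they survey the tissue with fine processes and carry a set of transcripts that blood-derived macrophages express little, which is called the homeostatic signature. In the brain this signature depends on TGF-beta signalling and on transcription factors that include SALL1, and many of its genes fall when microglia respond to injury. In OIR, vessels regress under high oxygen and abnormal vessels then grow from the ischaemic retina, and microglia gather at the new vessel tufts.

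The replicates were not alike in depth. The 2 replicate 1 samples held 37872383 (OIR) and 42606878 (Ctrl) unique molecular identifiers (UMIs, each counted as 1 captured RNA molecule), and the other 4 samples held between 15788524 and 25061712. Xist RNA stood at 1798 and 1998 CPM (a gene's UMIs scaled to the same total in each sample) in Ctrl replicates 2 and 3. It was under 0.5 CPM in the other 4 samples, so Ctrl replicate 1 differed from the other Ctrl samples in both respects. Xist RNA at such levels was thus found in Ctrl samples only. A difference tied to sex therefore cannot be fully told apart from one between OIR and Ctrl. Ctrl replicate 2 also carried haemoglobin RNA among its gated cells, with Hbb-bs at 24882 CPM against at most 32.6 CPM in the other 5 samples. Pairs of samples shared between 3 and 17 barcodes among the kept cells and 0 among the gated cells. The gate held 180, 60 and 97 cells in the OIR samples and 216, 48 and 65 cells in the Ctrl samples. The share of gated cells among kept cells was 1.79% ± 1.03 in OIR and 1.61% ± 1.22 in Ctrl (SD, n = 3 each), and an exact two-sided permutation test gave p = 0.6, where 0.1 is the smallest p that 3 against 3 samples allow.

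Gated cells fell into 3 parts when all kept cells were clustered into 23 clusters. The microglia-like cluster, with Ctss, C1qa, C1qc, C1qb and Cx3cr1 among its leading genes, held 243 of them with a median of 7809 UMIs per cell. A further 340 gated cells lay in a cluster of low UMI counts, with a median of 1753. This immune cluster stayed unnamed because the blood leukocyte markers S100a9 and S100a8 outnumbered microglial markers among its leading genes. Each of the 7 microglial markers was still detected in a larger share of its cells than the mean over the clusters. S100a8 and S100a9 themselves had 0 UMIs in the gated cells of all 6 samples. The remaining 83 gated cells were scattered over other clusters, and in 73.5% of them no UMI of any of the 6 genes was found. The gated cells of the microglia-like cluster made up 38.9%, 28.3% and 21.6% of the gate in the OIR samples and 37.5%, 41.7% and 52.3% in the Ctrl samples. Levels over the whole gate therefore mix the level per cell with the share of deeply read cells, and values of the microglia-like cluster alone are given beside the main ones.

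The homeostatic genes marked these cells sharply, with Sgk1 as the exception. Between 93.0% (Sall1) and 98.9% (Siglech) of the UMIs of the other 5 genes in kept cells came from gated cells, which held 2.39% of all UMIs. For Sgk1 the share was 30.7%. Each gene was higher in gated cells than in the other cells of the same sample in 6 of 6 samples. The mean difference in log2(CPM + 10) was 7.06 ± 0.46 for Cx3cr1, 6.32 ± 0.62 for P2ry12, 5.54 ± 0.50 for Siglech, 5.30 ± 0.64 for Tmem119, 3.82 ± 0.44 for Sall1 and 3.53 ± 0.69 for Sgk1 (SD over 6 samples). Each gave p = 0.031 by an exact two-sided sign-flip permutation test, the smallest p that 6 samples allow, and 0.031 after Benjamini-Hochberg adjustment over the 6 genes. As background, 30.4% of the 5251 genes tested in microglia were higher in gated cells in every sample, and 3.5% were higher in every sample by at least 2.65, the smallest difference in a single sample among the 6 genes. The gate itself had a narrow edge. In the 75 cells with exactly 2 gate genes P2ry12 had 3 UMIs and Cx3cr1 5, in the 1259 cells with exactly 1 gate gene just outside it they had 6 and 22, and in the 535 cells with all 4 gate genes they had 2548 and 4325.

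Within the microglia-like cluster most cells carried the whole set. At least 1 UMI of all 6 genes was found in 153 of its 243 gated cells, against 2 of 340 in the immune cluster, where the median depth was lower. P2ry12 and Cx3cr1 were among the 7 markers for microglia by which clusters were named. The 6 genes were also not kept out of the clustering. These counts therefore only describe the clusters. Each of the 243 cells was thinned at random to 1000 UMIs. Across them, the correlations of the genes' UMI counts with each other lay between -0.05 and 0.21, with the highest value for Tmem119 and Sgk1. These cells share 6 libraries, and the thinned counts are sparse, so the values are given as a description.

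In the genome build GRCm38 the genes lie on 6 chromosomes. P2ry12 spans chr3:59216272-59262871 on the minus strand, Cx3cr1 chr9:119901616-120069879 (minus), Siglech chr7:55768178-55778925 (plus), Tmem119 chr5:113793729-113800516 (minus), Sall1 chr8:89027235-89044162 (minus) and Sgk1 chr10:21882184-21999903 (plus). Exons of P2ry12 overlap those of Med12l on the opposite strand and exons of Cx3cr1 those of Gm33858, so reads of these pairs are told apart only by strand.

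Promoters from the RefSeq table of GRCm38.p6, each from 250 bases before to 50 after a start site, were searched on both strands. Promoters were available for 5 of the 6 genes, with 6 start sites for Sgk1, 3 for Sall1 and 1 each for P2ry12, Cx3cr1 and Siglech. Tmem119 had no entry, so its promoter was not searched. The glucocorticoid response element, searched as AGAACA, any 3 bases and TGTTCT, was present at 1 of the 6 Sgk1 promoters, 189 bases before the start, and in 3 of all 32851 promoters (0.00913%). The PU.1 core GAGGAAG, a site of the myeloid factor PU.1, was present on the opposite strand in 4 of the 6 Sgk1 promoters and in 13.6% of all promoters, and in none of the P2ry12, Cx3cr1 or Siglech promoters. The composite site of PU.1 and IRF factors, GGAA, any 2 bases and GAAA (2.72% of promoters), and the SMAD element of TGF-beta signalling, GTCT followed by AGAC (0.213%), were in none of the promoters of the 5 genes. The hypoxia response element core ACGTG, in 19.6% of promoters, was in the P2ry12 and Siglech promoters and in the Sgk1 promoter with the glucocorticoid element, and its form GCGTG, in 32.4% of promoters, in those of Cx3cr1 and 1 start of Sall1 and in 2 of Sgk1. A match shows only that these letters are in the window.

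The Sgk1 promoter with both elements is shown with that of P2ry12, which holds neither, 5′ to 3′ on the strand of the gene. Capitals mark the glucocorticoid response element and the PU.1 core read on the opposite strand (CTTCCTC).
Sgk1, chr10:21993640-21993939, plus strand: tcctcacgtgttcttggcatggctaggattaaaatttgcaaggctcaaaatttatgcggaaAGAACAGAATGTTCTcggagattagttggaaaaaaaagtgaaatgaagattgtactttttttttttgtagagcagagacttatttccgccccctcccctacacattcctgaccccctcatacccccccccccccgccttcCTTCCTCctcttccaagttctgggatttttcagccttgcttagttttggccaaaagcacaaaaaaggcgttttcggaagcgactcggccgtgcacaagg
P2ry12, chr3:59262936-59263235, minus strand: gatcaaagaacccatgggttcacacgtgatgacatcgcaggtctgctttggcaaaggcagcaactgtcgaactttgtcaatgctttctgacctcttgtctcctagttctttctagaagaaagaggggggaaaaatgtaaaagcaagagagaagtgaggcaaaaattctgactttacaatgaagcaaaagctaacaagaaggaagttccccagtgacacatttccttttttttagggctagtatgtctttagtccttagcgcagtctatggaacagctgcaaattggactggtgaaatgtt

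**Figure D1:**
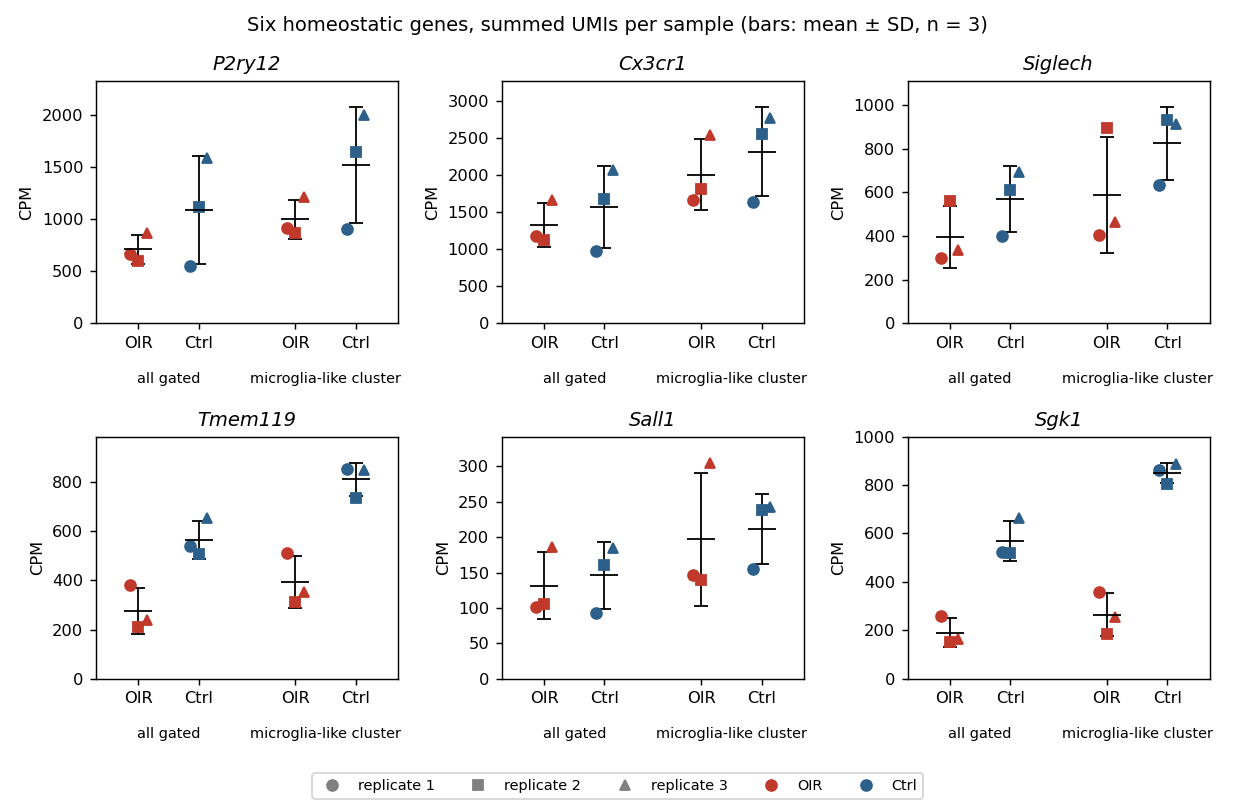
CPM of each gene (y axis, linear and starting at 0) in all gated cells and in the gated cells of the microglia-like cluster, for 3 OIR samples (red) and 3 Ctrl samples (blue), with the shape of a point giving the replicate number and bars giving mean ± SD. Tmem119 and Sgk1 were lower in each OIR sample than in each Ctrl sample in both sets of cells, and for the other 4 genes the groups overlapped.

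P2ry12 encodes the ADP receptor through which microglial processes turn towards injured tissue. Summed over the gate it had 751, 187 and 364 UMIs in the OIR samples, or 660.4, 601 and 869.6 CPM, and 592, 259 and 411 UMIs in the Ctrl samples, or 552, 1121 and 1587 CPM. The groups overlapped, since Ctrl replicate 1 was the lowest of the 6 samples and Ctrl replicate 3 the highest. The means were 710.2 ± 141 CPM in OIR and 1086 ± 519 in Ctrl (SD, n = 3), and the fitted log2 fold change of OIR over Ctrl was -0.55 with a standard error (SE) of 0.32. With a term for the 2 samples that carry Xist RNA, which sets OIR against Ctrl replicate 1 alone, the sign turned, to 0.36. Levels in the microglia-like cluster were 913, 866 and 1210 CPM in OIR and 908, 1644 and 2004 CPM in Ctrl. They overlapped, with a log2 fold change of -0.56 (SE 0.26). A gated cell there held on average 11.1 ± 2.79 UMIs of P2ry12 in OIR and 9.84 ± 2.83 in Ctrl (SD, n = 3), which overlapped.

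Cx3cr1 encodes the receptor for fractalkine, a ligand that neurons display. It was the most abundant of the 6 genes in UMIs, at 1183, 1121 and 1669.9 CPM in the OIR samples and 979, 1674 and 2074 CPM in the Ctrl samples. Again Ctrl replicate 1 was the lowest sample and Ctrl replicate 3 the highest. The fitted log2 fold change was -0.19 (SE 0.27), and it was 0.43 with the Xist term. Levels in the microglia-like cluster were 1659, 1816 and 2549 CPM in OIR and 1633, 2553 and 2769 CPM in Ctrl, and overlapped. Per cell of the microglia-like cluster the order of the group means differed from that of CPM, as it also did for P2ry12, Siglech and Sall1. A gated cell there held on average 22.5 ± 6.71 UMIs of Cx3cr1 in OIR and 15.2 ± 3.21 in Ctrl. OIR cells there also held more UMIs of all genes, 11092 ± 664 against 6661 ± 941 per cell (SD, n = 3). The total per cell did not overlap between the groups, while Cx3cr1 per cell did.

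Siglech encodes a sialic acid binding lectin that signals through the adaptor made from Tyrobp. Its levels were 297, 559 and 334 CPM in the OIR samples and 399.7, 610.05 and 695 CPM in the Ctrl samples. OIR replicate 2 lay among the Ctrl samples, so the groups overlapped. The fitted log2 fold change was -0.48 (SE 0.27), and it shrank to -0.04 with the Xist term. Levels in the microglia-like cluster were 406, 894 and 466 CPM in OIR and 633, 930 and 913 CPM in Ctrl, and overlapped. A gated cell there held on average 6.46 ± 2.66 UMIs of Siglech in OIR and 5.44 ± 1.07 in Ctrl (SD, n = 3), which overlapped. Markers of plasmacytoid and lymphoid cells, the other cells known for Siglech, were scarce. Of their 10 genes between 1 and 3 had any UMI in a sample, their summed level ran from 32.1 to 40.6 CPM in OIR and from 33.5 to 43.3 CPM in Ctrl, and Klk1, Ly6d, Cd3e, Cd3g, Cd79a, Nkg7 and Ms4a1 were at 0 in all 6 samples.

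Tmem119 encodes a membrane protein that is widely used to tell microglia from other macrophages. It had 436, 65 and 100 UMIs in the OIR samples, or 383, 209 and 239 CPM, against 578, 117 and 169 UMIs in the Ctrl samples, or 538, 506 and 653 CPM. All 3 OIR samples lay below all 3 Ctrl samples, with means of 277 ± 93.3 and 566 ± 76.9 CPM (SD, n = 3). The fitted log2 fold change was -0.95 (SE 0.27). It was as large in the microglia-like cluster alone, at -1.0 (SE 0.25), where the levels were 513, 311 and 354 CPM in OIR against 854, 734 and 849 CPM in Ctrl. In the gated cells of the immune cluster alone it was -0.92 (SE 0.44). The levels there were 215, 78.5 and 76.9 CPM in OIR and 335, 158 and 156 CPM in Ctrl, and overlapped. Over the whole gate the log2 fold change was -0.92 with the Xist term and -1.34 without the replicate 1 samples. Per cell of the microglia-like cluster the groups overlapped, at 4.35 ± 1.14 UMIs of Tmem119 in OIR and 5.39 ± 0.74 in Ctrl.

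Sall1 encodes the zinc finger transcription factor that keeps microglia in their resting identity. It was the least abundant of the 6 genes, with 116, 33 and 78 UMIs in the OIR samples and 100, 37 and 48 UMIs in the Ctrl samples. The levels of 102, 106 and 186 CPM in OIR overlapped with those of 93.2, 160.1 and 185 CPM in Ctrl. The fitted log2 fold change of -0.06 (SE 0.32) took either sign as single samples were left out. Levels in the microglia-like cluster were 146, 139 and 306 CPM in OIR and 155, 238 and 243 CPM in Ctrl, and overlapped. A gated cell there held on average 2.23 ± 1.21 UMIs of Sall1 in OIR and 1.39 ± 0.29 in Ctrl (SD, n = 3), which overlapped. Sall1 was found there in 74.3%, 76.5% and 85.7% of OIR cells and in 66.7%, 65% and 70.6% of Ctrl cells. These shares did not overlap and were higher in OIR, where the cells were read more deeply. After thinning to 1000 UMIs they were 22.0% ± 2.95 and 18.9% ± 2.47 (SD, n = 3) and overlapped. For OIR replicate 2 the exact 95% Poisson interval of its level was 72.9 to 149 CPM, which covers counting error only.

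Sgk1 encodes a serine/threonine kinase of the PI3K pathway that glucocorticoids and cell stress induce in many tissues. It had 293, 47 and 68 UMIs in the OIR samples, or 258, 151 and 162 CPM, against 564, 120 and 172 UMIs in the Ctrl samples, or 525, 519 and 664 CPM. The highest OIR sample, replicate 1, held less than the lowest Ctrl sample, replicate 2, so the groups did not overlap. The means were 190.3 ± 58.6 CPM in OIR and 569.6 ± 82.0 in Ctrl (SD, n = 3), which is 2.99-fold lower in OIR. The fitted log2 fold change of -1.49 (SE 0.26) was the largest of the 6.

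The lower level of Sgk1 was present in the deeply read cells. In the gated cells of the microglia-like cluster the levels were 358, 183 and 253 CPM in the OIR samples and 862, 804 and 886 CPM in the Ctrl samples. The UMIs of Sgk1 per cell there did not overlap between the groups either, at 2.94 ± 0.97 in OIR and 5.65 ± 0.66 in Ctrl. How many of all genes separate in UMIs per cell was not counted, so nothing is read from this gap. Each positive cell held on average 4.39, 2.54 and 3.15 UMIs of Sgk1 in the OIR samples and 6.42, 6.05 and 5.60 in the Ctrl samples. The share of positive cells there was 88.6%, 76.5% and 95.2% in OIR and 97.5%, 95% and 88.2% in Ctrl, and overlapped. In the gated cells of the immune cluster alone, with 38 UMIs in OIR and 56 in Ctrl, the log2 fold change was -0.95 (SE 0.50). The levels there were 89.0, 122 and 32.0 CPM in OIR and 222, 65.8 and 89.1 CPM in Ctrl, and overlapped. Of the Ctrl UMIs there, 47 came from replicate 1.

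Read together, 6 of 6 fitted log2 fold changes lay below 0, where 51.8% of the 5251 genes tested did, and 2 of 6 genes had every OIR sample below every Ctrl sample, where 7.33% of the genes tested did. In the microglia-like cluster the same 2 genes did so, beside 8.49% of 3393 genes. Without Ctrl replicate 2, which carried haemoglobin RNA, the log2 fold changes were -1.54 for Sgk1, -1.01 for Tmem119, -0.51 for P2ry12, -0.42 for Siglech, -0.13 for Cx3cr1 and 0.031 for Sall1. The median over the 6 genes was -0.51 and over all genes tested -0.02. Since the genes were chosen on this contrast, nothing is read from these counts. Sums of UMIs alone cannot tell fewer positive cells from less RNA per cell, and the shares of positive cells are therefore given next.

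**Figure D2:**
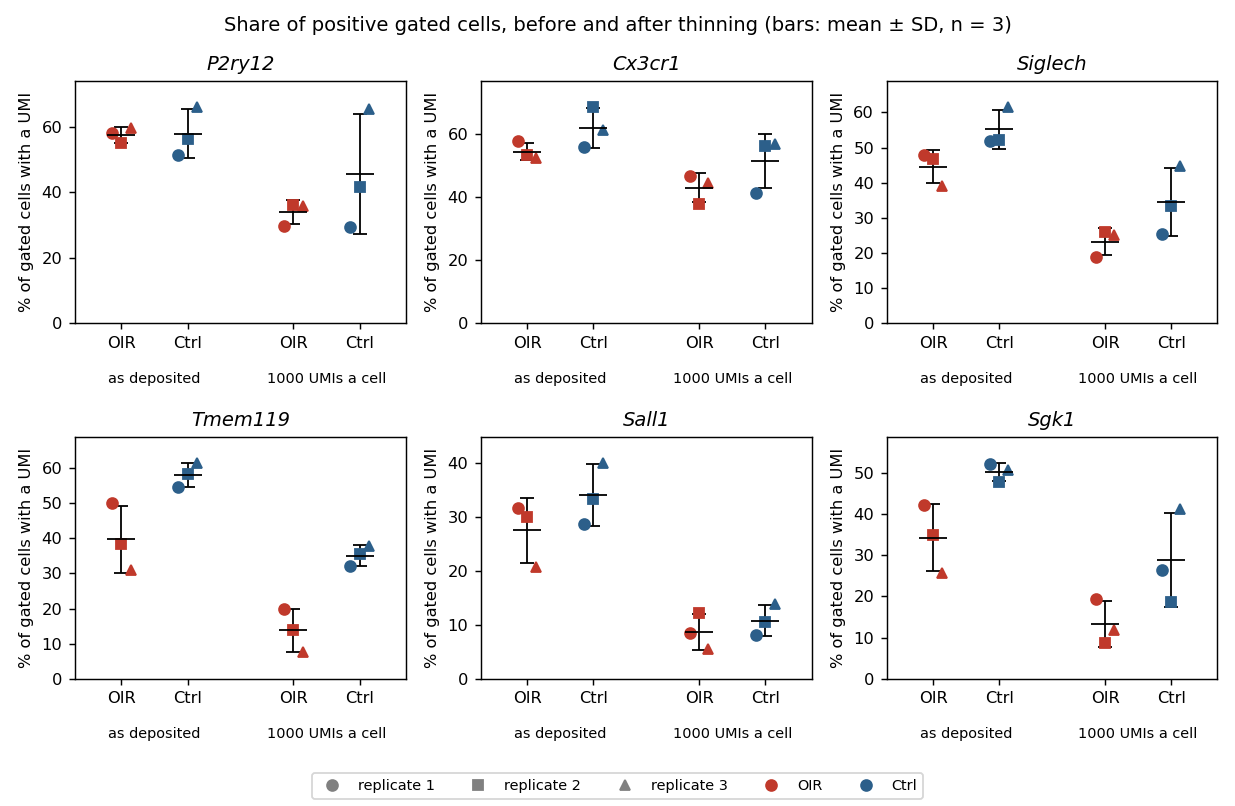
Percentage of gated cells with at least 1 UMI of each gene (y axis, starting at 0) in 3 OIR (red) and 3 Ctrl (blue) samples, as deposited and after each cell was thinned at random to 1000 UMIs, with mean ± SD. After thinning to 1000 UMIs, the groups stay apart for Tmem119 and overlap for the other 5 genes.

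Shares of positive cells depend on depth, and the gated cells of the samples had medians between 2333 (OIR replicate 3) and 5159.5 UMIs (OIR replicate 1). As deposited, Tmem119 was found in 50%, 38.3% and 30.9% of gated cells in the OIR samples and in 54.6%, 58.3% and 61.5% in the Ctrl samples. Sgk1 was found in 42.2%, 35% and 25.8% against 52.3%, 47.9% and 50.8%. For both genes, and for Siglech with 47.8%, 46.7% and 39.2% against 51.9%, 52.1% and 61.5%, the groups did not overlap. How many of all genes have positive shares that separate in this way was not counted. Nothing is therefore read from such gaps, here or after thinning. As a background for detection alone, Tmem119 was found in 0.035% and Siglech in 0.0194% of the 25741 rod-like cells, which lack both genes, at median depths of 1403 to 3084 UMIs. Sgk1 was found in 3.98% of them.

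After every gated cell was thinned to 1000 UMIs, which left out between 0 and 16 shallower cells per sample, Tmem119 was found in 20%, 13.8% and 7.61% of OIR cells and in 32%, 35.4% and 37.9% of Ctrl cells. These shares still did not overlap. Sgk1 was then found in 19.4%, 8.62% and 11.96% against 26.5%, 18.8% and 41.4%, with OIR replicate 1 above Ctrl replicate 2, and overlapped. P2ry12 at 29.7%, 36.2% and 35.9% against 29.5%, 41.7% and 65.5% overlapped, and so did Cx3cr1 and Sall1. Siglech, at 18.8%, 25.9% and 25% against 25.5%, 33.3% and 44.8%, overlapped by 1 sample of each group, and with a gate of at least 3 of 4 genes it did not overlap. After thinning to 500 UMIs, which left out no cell, Sgk1 was found in 7.78%, 5% and 4.12% of OIR cells and in 24.1%, 18.8% and 21.5% of Ctrl cells, without overlap. At that depth Tmem119 did not overlap over the gate, at 10.7% ± 4.19 against 21.4% ± 5.67, but did in the microglia-like cluster, at 19.5% ± 6.70 against 31.7% ± 12.1 (SD, n = 3). Sgk1 thus overlapped at 1000 UMIs and not at 500. Each depth rests on a single random draw, so the effects of depth and of the draw cannot be told apart. For Sgk1 the thinned shares did not overlap in the microglia-like cluster alone, at 37.1%, 5.88% and 38.1% against 45.7%, 45% and 67.6%. In the microglia-like cluster a thinned cell held on average 2.56, 2.41 and 2.29 of the 6 genes in the OIR samples and 2.94, 3.30 and 3.91 in the Ctrl samples, which did not overlap.

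**Figure D3:**
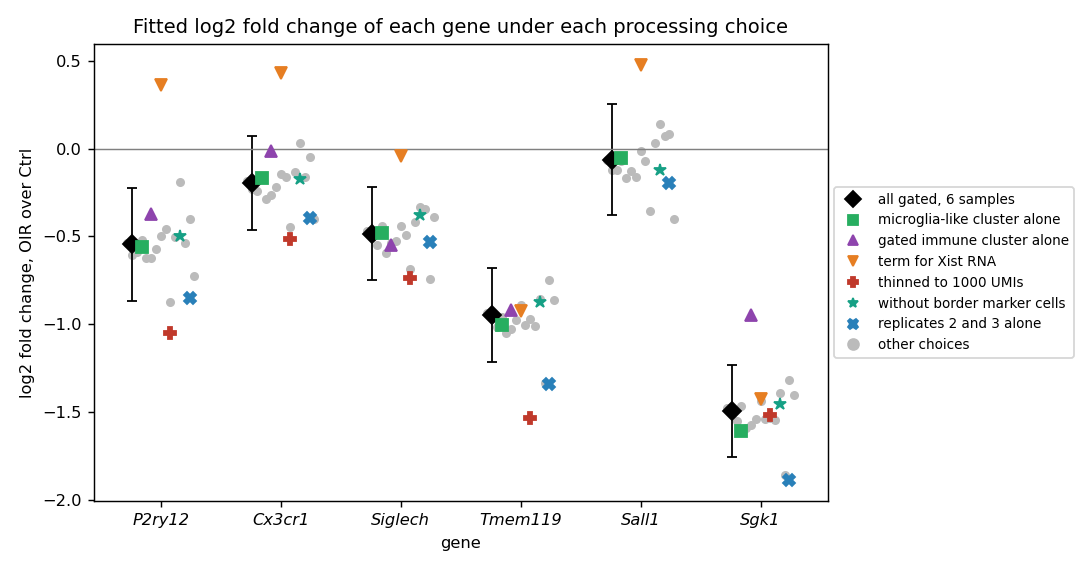
Fitted log2 fold change of OIR over Ctrl in microglia (y axis) of each gene under each processing choice, where the diamond with its bar is the value over all gated cells ± SE and other symbols are single alternatives. Tmem119 and Sgk1 stay below 0 under each choice drawn, and P2ry12, Cx3cr1 and Sall1 lie above 0 with the Xist term.

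The wider homeostatic program was then read from 35 further genes, of which 33 passed the filter on low counts. With edgeR 0 of the 33 were called at an adjusted p under 0.05, where 0.0571% of the 5251 genes tested were called. At an unadjusted p under 0.05 edgeR found 9 lower and 0 higher in OIR, against 3.22% and 4.76% of all genes tested, and DESeq2 called 2 as lower, where it called 0.452% of 7077 genes in either direction. The log2 fold changes lay below 0 for 25 of 33 genes, where 51.8% of all genes tested did. Their median was -0.19 over the gate and -0.26 in the microglia-like cluster. Of the 33, 9 genes had every OIR sample below every Ctrl sample, where 7.33% of all genes tested did, and 1 had every OIR sample above. The share of all genes tested with every OIR sample above was not counted. Cst3, a secreted protease inhibitor, had the lowest p, with a log2 fold change of -0.99 (SE 0.19, edgeR adjusted p = 0.106, DESeq2 adjusted p = 0.00094). Tgfbr1, a TGF-beta receptor chain, was at -0.90 (SE 0.22, edgeR adjusted p = 0.219), with 236, 199 and 213 CPM in OIR against 329, 472 and 471 CPM in Ctrl. Selplg, a selectin ligand, was at -0.96 (SE 0.23, edgeR adjusted p = 0.219, DESeq2 adjusted p = 0.0398), and Sall3, a relative of Sall1, at -0.81 (SE 0.30, edgeR adjusted p = 0.485). Other members of the program had values near 0, such as Sparc at -0.00 and Csf1r, the receptor for colony stimulating factor 1, at -0.13. The summed level of the list ran from 31106 to 34417 CPM in OIR and from 38298 to 57782 CPM in Ctrl.

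The genes of the gate itself lay near 0 or above it. Of the 4, edgeR and DESeq2 called 0 and 0 passed an unadjusted p of 0.05, the median was 0.21, and C1qa lay at 6395 ± 418 CPM in OIR and 5598 ± 182 in Ctrl (SD, n = 3) without overlap. How many of all genes separate upward was not counted, so nothing is read from this gap. In the microglia-like cluster the median was 0.056 and C1qa overlapped, at 7965 ± 851 against 7602 ± 599 CPM.

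Receptors, transcription factors and signals around the 6 genes gave few values past a threshold. Of the TGF-beta axis 11 of 15 genes were tested and 0 were called by edgeR or DESeq2, with 1 lower at an unadjusted p under 0.05, namely Tgfbr1, and the median was -0.27 over the gate and -0.41 in the microglia-like cluster. Of the microglial transcription factors 11 of 12 were tested, and 0 were called or passed an unadjusted p of 0.05 with edgeR, with medians of 0.05 and -0.13. Spi1, which encodes PU.1, stood at 0.31 (SE 0.23). Of the purinergic and adenosine receptors 6 of 12 were tested and 0 were called by either tool. P2rx4, an ATP-gated channel, was at 0.69 (SE 0.24, edgeR adjusted p = 0.441), in the opposite direction to Gpr34 at -0.79 (SE 0.31, edgeR adjusted p = 0.564) and P2ry13 at -0.54 (SE 0.22, edgeR adjusted p = 0.583), which lies beside P2ry12 in function as an ADP receptor.

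Since Sgk1 answers to glucocorticoids, 14 other glucocorticoid responsive genes and 10 of the SGK family and its substrates were read too. Of the first list 11 were tested, 0 were called by edgeR or DESeq2, 2 were lower at an unadjusted p under 0.05 with edgeR, and the median was -0.06 over the gate and -0.71 in the microglia-like cluster. Errfi1 was at -0.86 (SE 0.29, edgeR adjusted p = 0.384) and Tsc22d3, the gene of the glucocorticoid-induced leucine zipper, at -0.79 (SE 0.35, edgeR adjusted p = 0.601), while Fkbp5 was at 0.09 (SE 0.47). Of the SGK list 6 were tested, 0 were called by either tool and 1, Ndrg2, was lower at an unadjusted p under 0.05 with edgeR, at -1.05 (SE 0.45, adjusted p = 0.601). Sgk3 was at 0.78 (SE 0.40, edgeR adjusted p = 0.674) and Sgk2 had 0 UMIs in all 6 samples. Immediate early genes, which tissue dissociation induces, lay in the same direction as Sgk1, and their part in the result was not tested. For these 19 genes 18 were tested, edgeR and DESeq2 called 0, 3 were lower at an unadjusted p under 0.05 with edgeR, the median was -0.43, and the summed level ran from 4869 to 9644 CPM in OIR and from 8177 to 10094 CPM in Ctrl. Jun was at -0.75 (SE 0.23, edgeR adjusted p = 0.330).

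Genes of the disease-associated state, which brain microglia take on around plaques and dying neurons, lay in the other direction. Of 18 genes 13 were tested, edgeR called 1 higher and DESeq2 3, 8 were higher and 0 lower at an unadjusted p under 0.05 with edgeR, and the median log2 fold change was 1.28 over the gate and 0.71 in the microglia-like cluster. Among all genes tested, edgeR called 0.0571% and DESeq2 0.452% in either direction. At an unadjusted p under 0.05 edgeR found 4.76% of them higher and 3.22% lower. Apoe, the lipid carrier apolipoprotein E, rose from 12781, 14494 and 16570 CPM in the Ctrl samples to 33498, 36691 and 38570.5 CPM in the OIR samples (log2 fold change 1.35, SE 0.16, edgeR adjusted p = 0.0119). Apoe is also abundant in Mueller glia, whose part in the result was not tested. The Mueller gene Glul lay at 594, 915 and 406 CPM in OIR against 1153, 558 and 1128 CPM in Ctrl, and these groups overlapped. Glul is only 1 of the 6 Mueller markers, and those other than Apoe and Glul are not given here. Nothing is therefore read from Glul about the source of Apoe. Cst7 was at 2.01 (SE 0.33, edgeR adjusted p = 0.061), Fabp5 at 2.89 (SE 0.61, edgeR adjusted p = 0.138) and Lgals3 at 4.19 (SE 0.91, edgeR adjusted p = 0.159).

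In all, edgeR called 3 of 5251 genes in the gate, all higher in OIR. Beside Apoe these were Apoc1, another apolipoprotein gene, at 368, 501 and 401 CPM in OIR against 24.2, 51.9 and 69.5 CPM in Ctrl (log2 fold change 3.31, SE 0.34, edgeR adjusted p = 0.00653), and F13a1. F13a1 encodes a coagulation factor chain and marks macrophages at tissue borders. It had 61, 22 and 34 UMIs in the OIR samples and 0 in each Ctrl sample, which makes it at least 32.7-fold higher in OIR over a floor of 3 UMIs for the Ctrl group as a whole, both taken over the summed UMIs (edgeR adjusted p = 0.00653). These UMIs came from 8, 1 and 2 gated cells in the OIR samples, and the microglia-like cluster of OIR replicate 2 held 0 of them. Apoc1 had 348, 126 and 100 UMIs in that cluster in OIR and 13, 2 and 14 in Ctrl.

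**Figure D4:**
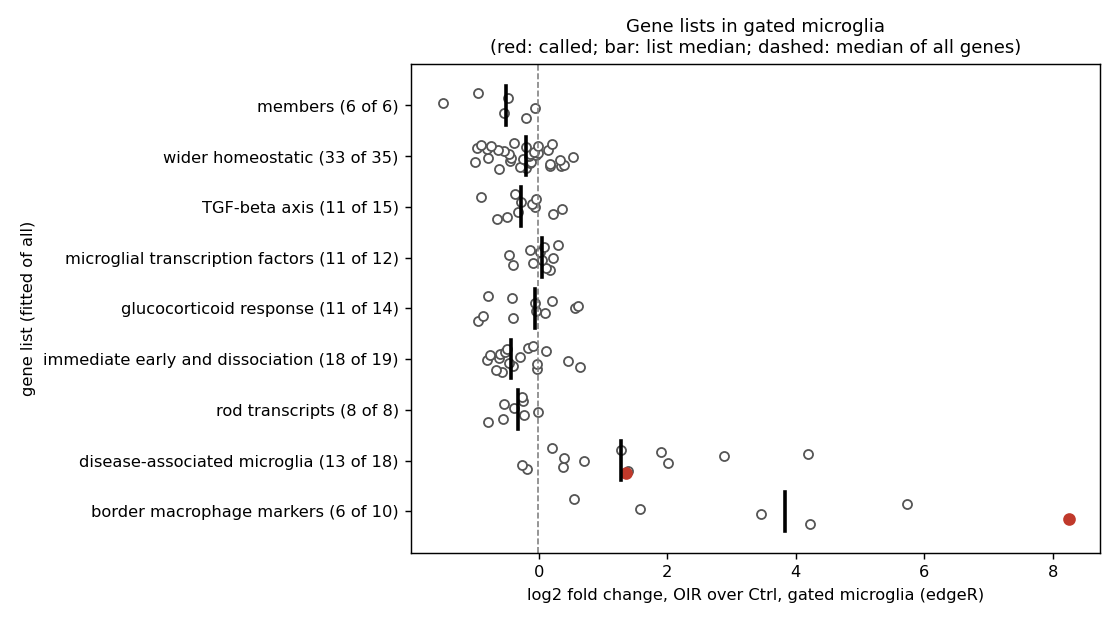
Fitted log2 fold change of OIR over Ctrl in gated microglia (x axis) for each tested gene of 9 gene lists (y axis, with the number tested), where a bar marks the median of a list, red marks genes called by edgeR and the dashed line is the median of all 5251 genes. The median of the wider homeostatic list was -0.19, and those of the disease-associated and border macrophage lists were 1.28 and 3.84, where in the microglia-like cluster alone they were -0.26, 0.71 and 1.06.

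Markers of border macrophages, which sit around vessels and at the edges of the retina, lay higher in OIR, and their values stand here beside the lower homeostatic levels. Of the 10 markers 6 were tested, edgeR called 1 higher and DESeq2 4, and the median log2 fold change was 3.84. Among all genes tested, edgeR called 0.0571% and DESeq2 0.452% in either direction. In the microglia-like cluster 2 were tested, 0 were called by edgeR and the median was 1.06. The summed level of the 10 ran from 649.8 to 1271 CPM in OIR and from 75.5 to 225 CPM in Ctrl. Pf4 had 324, 73 and 309 UMIs in OIR and 0, 4 and 6 in Ctrl, and Mrc1 59, 14 and 41 against 1, 4 and 3. Only 12, 2 and 8 gated cells in the OIR samples and 1, 2 and 4 in the Ctrl samples held UMIs of at least 2 markers of this list. Against the number of gated cells the groups overlapped. Without those cells the log2 fold changes were -1.46 for Sgk1, -0.87 for Tmem119, -0.50 for P2ry12, -0.38 for Siglech, -0.17 for Cx3cr1 and -0.12 for Sall1. Cells with a single marker of the list stayed in. The part of border macrophages in the homeostatic levels was not tested. Of the monocyte markers 0 of 10 passed the filter, at 7.17 to 51.0 CPM in OIR and 0 to 8.65 CPM in Ctrl in sum, and of the proliferation genes 0 of 8, at 21.5 to 64.2 CPM against 7.72 to 21.6 CPM. Of the neutrophil markers 1 of 9 was tested and 0 were called, namely Csf3r, and the summed level was 41.7 to 70.3 CPM in OIR and 80.1 to 143 CPM in Ctrl. Rod transcripts in the gate summed to between 7209 and 10617 CPM in OIR and between 8090 and 14074 CPM in Ctrl. EdgeR called 0 of 8, with 1 lower at an unadjusted p under 0.05. Their log2 fold changes lay below 0 for 8 of 8, where 51.8% of all genes tested did. The median was -0.32 over the gate and -0.44 in the microglia-like cluster. In the gated cells of the immune cluster their sum ran from 13996 to 20612 CPM in OIR. It ran from 26014 to 31593 CPM in Ctrl, without overlap. The part of rod RNA in the homeostatic levels was not tested.

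**Figure D5:**
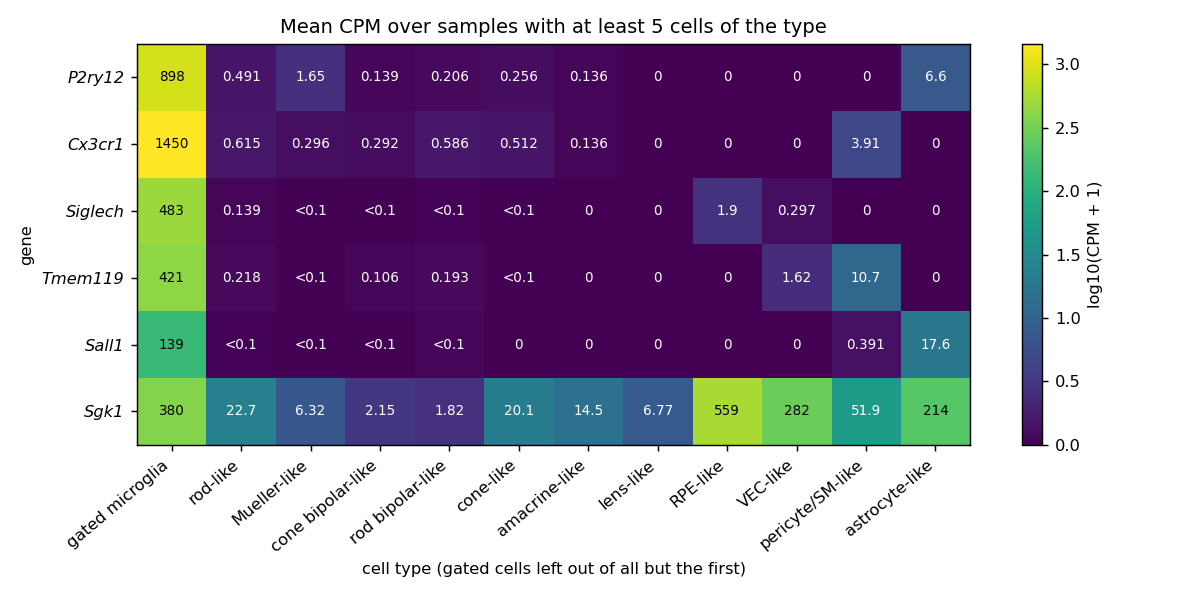
Mean CPM of each gene (rows) in gated microglia and in 11 other cell types without their gated cells (columns), over the samples with at least 5 cells of a type, with colour on a log10(CPM + 1) scale and the CPM printed. The 5 genes other than Sgk1 are at 17.6 CPM or lower in these 11 types, and Sgk1 is highest in RPE-like cells at 559 CPM.

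Outside microglia the 6 genes parted into 5 that were nearly absent and Sgk1. P2ry12, Cx3cr1, Siglech, Tmem119 and Sall1 stayed at or below 17.6 CPM in each of the 11 other named types. The highest of these was Sall1 in astrocyte-like cells, with 18 UMIs and a UMI in 23.2% of 56 cells. Next came Tmem119 in pericyte and smooth muscle-like cells with 5 UMIs and 10.7 CPM. P2ry12 had 42 UMIs in 3466 Mueller-like cells, or 1.65 ± 0.59 CPM (SD over 6 samples).

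Sgk1 was highest in retinal pigment epithelium (RPE)-like cells at 559 ± 177 CPM (SD, n = 6 samples), with a UMI in 62.1% of them. Gated microglia followed at 380 ± 217 CPM, then vascular endothelial-like cells at 282 ± 158 CPM and astrocyte-like cells at 214 ± 106 CPM, both over the 3 samples with at least 5 such cells. These 4 ranges overlap, and neighbours in this order lie within 1 SD of each other. The place of microglia differs by group, since their mean was 570 CPM in Ctrl beside 572 CPM in RPE-like cells, and 190.3 CPM in OIR beside 547 CPM in RPE-like cells. Pericyte and smooth muscle-like cells were at 51.9 CPM, rod-like cells at 22.7, cone-like cells at 20.1, amacrine-like cells at 14.5, lens-like cells at 6.77, Mueller-like cells at 6.32 and cone and rod bipolar-like cells at 2.15 and 1.82 CPM.

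The contrast of OIR with Ctrl could be tested for the 6 genes in the other types, since it had no part in their choice. Of 42 pairs of a gene and a type with at least 10 cells in every sample, 4 passed the filter on low counts, all of them Sgk1. EdgeR called 0 of the 4, with 1 at an unadjusted p under 0.05, and DESeq2 called 1, where edgeR called 2.06% and DESeq2 4.99% of all genes in rod-like cells. The shares called by the same tools were 2.56% and 2.79% in Mueller-like, 1.01% and 1.11% in cone-like and 0.0569% and 0.00781% in RPE-like cells. Shares of all genes at an unadjusted p under 0.05 were not counted in these types. The pair called by DESeq2 was Sgk1 in rod-like cells, with 180, 134 and 111 UMIs in the OIR samples, or 20.5, 12.3 and 8.43 CPM, and 289, 217 and 201 UMIs in the Ctrl samples, or 52.2, 21.9 and 20.7 CPM. The OIR samples lay below the Ctrl samples without overlap, though OIR replicate 1 and Ctrl replicate 3 differed by less than their counting error. The log2 fold change was -1.33 (SE 0.43, edgeR adjusted p = 0.147, DESeq2 adjusted p = 0.0172). In rod-like cells same-numbered samples deviated together (r = 0.483, 0.244 and 0.359), but replicates 2 and 3 of unlike number did so too (r = 0.218 and 0.238). Pairing by number is therefore not established. A fit blocked on that number gave -1.31 (edgeR adjusted p = 0.000719), which passes the threshold but rests on that pairing. The share of all rod-like genes called by the blocked fit was not counted, so nothing is read from that call. OIR was lower in 3 of 3 same-numbered pairs, as in any pairing of groups that do not overlap. Without a block, the log2 fold change of Sgk1 was -0.52 (SE 0.54, adjusted p = 0.723) in Mueller-like cells, -0.13 (SE 0.28, adjusted p = 0.928) in cone-like cells and -0.08 (SE 0.35, adjusted p = 0.991) in RPE-like cells by edgeR. In RPE-like cells, where Sgk1 was as abundant as in Ctrl microglia, the levels were 547 ± 157 CPM in OIR and 572 ± 230 CPM in Ctrl (SD, n = 3). The difference between the microglial and the RPE-like change was not tested.

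Genes among those whose levels over the 12 cell types were most like those of the 6 are given as a description, with Pearson's r of log2(CPM + 10) among 7421 genes. For P2ry12 these were Il1b, Folr2 and Fcgr2b, for Tmem119 Adcy7, Was and Pilra, for Cx3cr1 Ccl4, Tagap and Dennd1c, and for Siglech Bcl2a1b and Slc11a1, each at r above 0.998. For Sall1 they were Ccl7, A830008E24Rik and Casp1, at 0.989, 0.988 and 0.982. Sgk1 had no such close match, and St3gal6, Tmc6 and Sdf4 reached 0.946, 0.942 and 0.917. Values near 1 arise where 1 of 12 types holds nearly all of a gene.

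Ligands of the microglial receptors came from several types. In the gate 5 of 10 ligands and partners were tested and 0 were called by edgeR or DESeq2. At an unadjusted p under 0.05 edgeR found 1 higher, Gas6, a bridge between dying cells and their receptors, at 0.68 (SE 0.21, adjusted p = 0.336). Cx3cl1, which encodes fractalkine, was highest in vascular endothelial-like cells at 39.8 CPM and in amacrine-like cells at 38.7 CPM, and Il34, a ligand of the receptor made from Csf1r, in pericyte and smooth muscle-like cells at 422 CPM. Tgfb1 was highest in gated microglia themselves at 212 CPM, with a log2 fold change of -0.27 (SE 0.26, edgeR adjusted p = 0.865). Tgfb2 was highest in Mueller-like cells, at 987 ± 101 CPM in OIR and 620.0 ± 33.5 CPM in Ctrl (SD, n = 3). Entpd1, which breaks down the ATP and ADP that P2ry12 senses, was highest in gated microglia at 139 CPM.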

How the data were processed

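Dissociated retinal cells were measured with the 10x Chromium 3′ v3 kit, which counts 1 end of each RNA, so CPM needs no scaling by gene length. The authors deposited raw UMI counts per gene and barcode with no normalization, aligned to mm10 per the labels and written by Cell Ranger 3.1.0 per the file headers, and all genes carry mouse identifiers although the study's methods name a human build. The counts were used as deposited. As in the study, cells with 500 to 5000 detected genes and at most 20% mitochondrial UMIs were kept. Clusters from Seurat 5.3.0 were named from marker lists. Doublets were left in, and scores from scanpy 1.11.5, with a cut at the expected rate, served as an alternative. UMIs were summed per sample over each set of cells.

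The test was edgeR 4.0.16 (TMM, filterByExpr, quasi-likelihood, R 4.3.3) over 3 OIR and 3 Ctrl sums with no covariate. Calls needed a Benjamini-Hochberg adjusted p, taken over all tested genes, under 0.05 and an absolute log2 fold change of 0.25 or more. DESeq2 1.42.0 was an alternative. On simulated microglia sums of 5251 genes with 200 changed, edgeR recovered 6% of genes changed 2-fold, 86% at 4-fold and 89% at 8-fold. Of its calls 14.3%, 8.02% and 4.81% were false at these folds. Exact permutation tests used SciPy 1.17.1, and 95% intervals cover counting error only. Values of log2(CPM + 10) carry a pseudocount of 10 CPM, and fitted log2 fold changes come from edgeR or DESeq2 without it. The members and gene lists were chosen with earlier results of these data known. The text names all 6 members, up to 4 genes per list and direction with the lowest p (those not called as values only), the 3 called genes with the lowest p in each direction, the top cell type of a ligand and up to 3 most alike genes per member. Glul, Hbb-bs, Csf3r, Fkbp5, Sgk3, Sgk2, Spi1, Sparc, Csf1r and Tgfb1 were named after their values were seen. A few results that the rule would name are not reported here. Sums of rod-like cells with the same replicate number deviated together (r = 0.483, 0.244 and 0.359). Replicates 2 and 3 of unlike number did so too (r = 0.218 and 0.238), and the labels state no pairing. Alternatives covered the filters, the gate, thinning, doublets, the test, the scaling, an Xist term, a replicate block and each sample left out.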

Additional observations from a re-analysis of the deposited data

How the results depend on the processing

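Beside the 3 genes called in microglia by edgeR, DESeq2 called 32, no filter on low counts 181, the Xist term 11, replicates 2 and 3 alone 12, a gate of at least 3 of 4 genes 19, the microglia-like cluster 11, all deposited barcodes 7, a mitochondrial limit of 10% 10, removal of doublets 6, thinning to 1000 UMIs 6 and leaving out gated cells of other clusters 37. Leaving out 1 sample gave 3 to 26, with 26 without Ctrl replicate 2. Calls in the wider homeostatic list, 0 at first, were 2 with DESeq2, no filter, replicates 2 and 3 alone, thinning or without other clusters, 1 with all barcodes, and 0 to 1 with 1 sample left out. Calls in the other lists, 2 at first, were 7 with DESeq2, 16 with no filter, 5 with the Xist term or 3 gate genes, 4 with all barcodes, 11 without other clusters, 1 in the microglia-like cluster or without cells with border macrophage markers, 0 in the immune cluster, and 1 to 5 with 1 sample left out. The causes were not tested. Replicates 2 and 3 alone, the immune cluster, the gate without other clusters and the border macrophage exclusion were chosen after seeing the data.

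The log2 fold changes turned sign with the Xist term for P2ry12 (0.36), Cx3cr1 (0.43) and Sall1 (0.48), in which the Ctrl level rests on Ctrl replicate 1 alone. With 1 sample left out they ran from -0.87 to -0.19 for P2ry12, -0.44 to 0.031 for Cx3cr1, -0.40 to 0.14 for Sall1, -0.74 to -0.33 for Siglech, -1.34 to -0.75 for Tmem119 and -1.86 to -1.32 for Sgk1. Cx3cr1 turned positive without Ctrl replicate 3, and Sall1 without Ctrl replicate 2 (0.03), Ctrl replicate 3 (0.14), OIR replicate 1 (0.07) or OIR replicate 2 (0.09). Tmem119 moved to -1.34 with replicates 2 and 3 alone and -1.53 after thinning, and Sgk1 to -1.89 with replicates 2 and 3 alone and -0.95 in the immune cluster. Sall1 gave no value in the immune cluster or after thinning, since it did not pass the filter on low counts there. The difference in thinned shares moved to -10.7 points for Tmem119 at 500 UMIs and to -6.58 for Sall1 with no thinning. Differences between gated and other cells ran over 6.95 to 7.19 for Cx3cr1, 6.13 to 6.45 for P2ry12, 5.42 to 5.67 for Siglech, 5.15 to 5.47 for Tmem119, 3.73 to 3.92 for Sall1 and 3.32 to 3.71 for Sgk1 with 1 sample left out, where 5 samples allow no p under 0.0625.

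In other types 1 member was called, Sgk1 in rod-like cells, with DESeq2, with no filter (-1.33, adjusted p = 0.0354) and with the replicate block (-1.31, adjusted p = 0.000719), and 0 with 1 sample left out. Shares of all rod-like genes called with no filter or with the block were not counted. In RPE-like cells its change was 0.015 with DESeq2, 0.079 with no filter and 0.79 with the Xist term. With 1 sample left out it ran from -0.32 to 0.33 there, from -1.25 to 0.64 in Mueller-like cells, from -0.42 to 0.20 in cone-like cells and from -1.78 to -0.81 in rod-like cells. The difference in the share of microglia was -0.16 points among cells that are not rod-like and ran from -0.42 to 0.88 with 1 sample left out.

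Samples with the same replicate number deviated together in microglia sums at r = 0.342, -0.120 and -0.034 over the 3 numbers, so the number alone does not pair them there. In rod-like sums the values were 0.483, 0.244 and 0.359, a check made after the calls were known. Rod-like samples of unlike number reached 0.238 (OIR replicate 3 with Ctrl replicate 2) and 0.218 (OIR replicate 2 with Ctrl replicate 3). These lie near the 0.244 of the replicate 2 samples, so pairing by number is not established there either. Same-numbered values were all over 0.1 in cone bipolar-like sums too, where no member was tested, but not in the other 5 types tested. A fit with a replicate block called 4 genes in microglia, 0 of the wider list and 2 of the other lists. Of the members in other types it changed the call of Sgk1 in rod-like cells only. Few cells limit the precision, since Ctrl replicate 2 rests on 48 gated cells and 231130 UMIs, and a 2-fold change was mostly missed on simulated sums.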
